A study of Mus musculus with 35 samples.

Results

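Metallothioneins are small cysteine-rich proteins that bind zinc and copper, and 6 genes of zinc handling were read in mouse retina: the metallothionein genes Mt1, Mt2 and Mt3, the zinc-sensing transcription factor gene Mtf1, the zinc exporter gene Slc30a1 and the zinc importer gene Slc39a14. They were chosen by gene name, with earlier results of these data known, and all 6 were found among the 25655 genes of each of the 8 comparison tables that the authors deposited. The 35 samples were retina of wild-type mice in 7 groups, and all groups share that genotype. Non-diabetic retina (ND) had 6 samples, and diabetic retina had 5 samples each after 6 weeks (D6), 8 weeks (D8) and 10 weeks (D10) of diabetes, where the D8 and D10 labels add PBS. In D8 depleted (4 samples) the labels give 8 weeks of diabetes with 2 weeks of DTx, and in D10 repopulated (5 samples) 10 weeks of diabetes with 2 weeks of DTx and 2 weeks of recovery. ND repopulated (5 samples) is non-diabetic retina with the same 2 weeks of DTx and 2 weeks of recovery. The series text names PLX-5622 in place of DTx as the agent that removes microglia, the immune cells that reside in retina, so the treatment is called depletion here. The labels do not give strain, age or the way diabetes was brought about. They also leave unsaid whether samples came from separate animals, so p-values measure the spread between these samples, which may be technical. D8 and D10 carry library numbers 2974 to 2983 and the other 5 groups 3006 to 3035, so D8 or D10 against any other group also crosses that divide and differs by PBS.

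Mt1 and Mt2 are the widespread stress-inducible metallothioneins, and Mt3 is the form known from the brain. When cytosolic zinc rises, MTF-1, the product of Mtf1, binds metal response elements in promoters such as those of Mt1, Mt2 and Slc30a1 and raises their transcription. Glucocorticoids and IL-6 family cytokines acting through STAT3 also raise Mt1 and Mt2 in many tissues. Slc30a1 encodes ZnT1, which moves zinc out of the cell, while Slc39a14 encodes ZIP14, which moves zinc into the cytosol and is raised by IL-6 in liver. The retina is rich in zinc, held largely in photoreceptors and pigment epithelium.

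Mt3, Mt2 and Mt1 lie in that order within 27.72 kb on the plus strand of chromosome 8 in GRCm39, the build of the deposited positions: Mt3 from 94879235 to 94880774, Mt2 from 94899292 to 94900196 and Mt1 from 94905710 to 94906955. Mtf1 lies on chromosome 4 from 124695897 to 124743593 (plus strand), Slc30a1 on chromosome 1 from 191638879 to 191645359 (plus strand) and Slc39a14 on chromosome 14 from 70540918 to 70588874 (minus strand). The 250 bases before the annotated start are shown for 4 of these genes because the promoters of Mt1, Mt2 and Slc30a1 are textbook sites of MTF-1, while Mt3 lies beside them. They are from RefSeq on GRCm38.p6, plus strand, at chr8:94178839-94179088 for Mt1, chr8:94172368-94172617 for Mt2, chr8:94152357-94152606 for Mt3 and chr1:191906531-191906780 for Slc30a1. Capitals mark the core of the metal response element, TGCACNC or TGCGCNC on either strand.
Mt1: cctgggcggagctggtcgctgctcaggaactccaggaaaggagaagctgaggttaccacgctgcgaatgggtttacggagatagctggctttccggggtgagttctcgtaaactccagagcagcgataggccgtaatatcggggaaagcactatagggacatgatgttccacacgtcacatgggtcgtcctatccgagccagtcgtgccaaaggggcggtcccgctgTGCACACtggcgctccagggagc
Mt2: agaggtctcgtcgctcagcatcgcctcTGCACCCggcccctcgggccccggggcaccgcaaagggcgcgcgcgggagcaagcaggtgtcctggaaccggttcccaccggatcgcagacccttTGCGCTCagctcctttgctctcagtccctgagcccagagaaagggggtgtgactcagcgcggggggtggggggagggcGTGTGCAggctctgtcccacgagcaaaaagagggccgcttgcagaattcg
Mt3: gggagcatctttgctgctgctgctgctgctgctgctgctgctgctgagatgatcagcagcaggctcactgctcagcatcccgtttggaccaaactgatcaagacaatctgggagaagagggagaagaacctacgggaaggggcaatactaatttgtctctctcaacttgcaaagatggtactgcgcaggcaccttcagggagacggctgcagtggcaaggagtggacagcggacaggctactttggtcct
Slc30a1: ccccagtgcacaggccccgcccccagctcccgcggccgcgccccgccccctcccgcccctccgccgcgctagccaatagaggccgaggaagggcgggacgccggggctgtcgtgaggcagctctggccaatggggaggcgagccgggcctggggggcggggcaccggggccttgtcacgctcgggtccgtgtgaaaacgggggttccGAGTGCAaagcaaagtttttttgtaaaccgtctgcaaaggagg

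The Mt2 window held 3 matches of the metal response core, at 223 to 217, 128 to 122 and 50 to 44 bases before the start. The Mt1 window held 1, at 23 to 17 bases, and the Slc30a1 window 1, at 43 to 37 bases. The windows of Mt3 and Mtf1 held none, and a window was at hand for 5 of the 6 genes. Of 32851 mouse windows of this length, 21.4% held at least 1 match and 1.26% at least 3. With the 50 bases after the annotated start added, the counts were 4 for Mt2, 3 for Mt1, 2 for Slc30a1, 1 for Mt3 and 0 for Mtf1, where 25.7% of windows held at least 1 and 1.97% at least 3. Of the 3 matches of Mt1, 2 reached past the annotated start. The counts thus depend on where that start is placed, and elements beyond these windows were not counted. Mt1 also held 1 match of the glucocorticoid receptor core ACANNNTGT, at 92 to 84 bases before the start (5.84% of windows). Mt2 and Slc30a1 each held 1 match of the antioxidant response element TGACNNNGC (10.2% of windows). No window of the 5 held the STAT letters TTCNNNGAA, which 7.02% of windows hold. No match overlapped another of its own motif, and a match is a run of letters, not a measured site.

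Mt1 and Mt2 were high in every diabetic group and low in both non-diabetic groups. For Mt1 the deposited group mean, in a unit the authors do not state, was 266 in D6, 263 in D10, 257 in D10 repopulated, 167 in D8 depleted, 146 in D8 and 30.5 in ND repopulated. The ND mean of Mt1 is not printed in the deposited tables, which give only the larger mean of each pair, and the deposited fold changes place it at 24.8 to 26.9. For Mt2 the deposited means were 527 in D6, 519 in D10 repopulated, 494 in D10, 249 in D8, 234 in D8 depleted and 30.5 in ND repopulated, with ND placed at 22.6 to 24.5. Both genes therefore had their lowest diabetic means in the groups at 8 weeks, with or without depletion. Values per sample were not used here, so it cannot be said whether single samples of these groups overlap. Levels are compared within a gene only, since the unit may or may not take account of gene length.

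**Figure D1:**
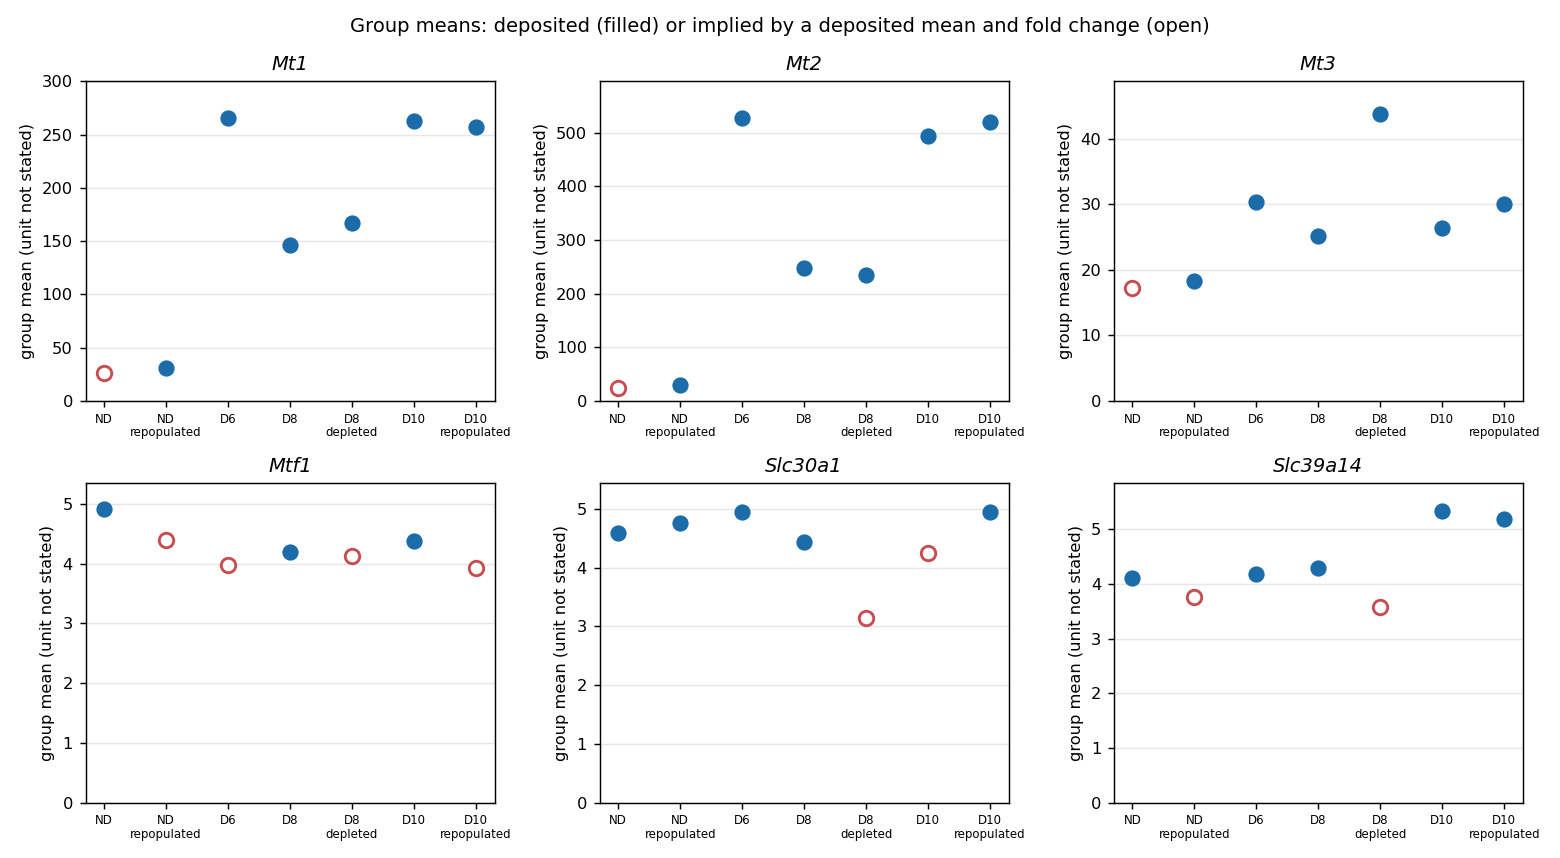
Group means of the 6 genes in the 7 groups (vertical axis from 0, unit not stated by the authors). Filled points are deposited means and open points are the middle of the range in which a deposited mean and fold change place the mean. Mt1 and Mt2 stand far above ND in all 5 diabetic groups, and Mt3 is highest in D8 depleted. Mtf1, Slc30a1 and Slc39a14 move far less than Mt1 and Mt2, and Slc30a1 and Slc39a14 are lowest in D8 depleted.

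A gene was called where the deposited false discovery rate (FDR) p was under 0.05. At 6 weeks 4 of the 6 genes were called, 3 higher and 1 lower, in a table where 23.4% of 17876 tested genes (those given an FDR p) were called, 14.1% higher and 9.31% lower. The calls were Mt1, Mt2 and Mt3 (higher) and Mtf1 (lower). At 8 weeks 2 were called higher (Mt1, Mt2) and 1 lower (Mtf1), against 2.91% of 17495 genes, 2.33% higher and 0.583% lower. At 10 weeks the 3 metallothioneins were called higher and none lower, against 7.00% of 17317 genes, 5.59% higher and 1.41% lower. In D8 depleted against ND 5 were called, the 3 metallothioneins higher and Mtf1 and Slc30a1 lower, where 28.5% of 18102 genes were called, 15.5% higher and 13.0% lower. In D10 repopulated against ND the 3 metallothioneins were called higher and Mtf1 lower, against 11.7% of 17495 genes, 7.49% higher and 4.19% lower. These 5 comparisons share the ND samples, so they are not independent of each other.

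Mt1 was 10.7-fold higher in D6 than in ND (log2 3.42, implied standard error 0.40, FDR p = 2.106e-14 in the authors' deposited table). The implied standard error is the one that turns the log2 fold change into the deposited p under a normal distribution. The interval at 95% ran from 6.22-fold to 18.5-fold. By FDR p Mt1 stood at rank 11 of the 17876 genes tested at 6 weeks, and by log2 fold change at rank 153. The rise of Mt1 was 5.50-fold in D8 (log2 2.46, 0.40, FDR p = 3.116e-07) and 9.96-fold in D10 (3.32, 0.40, 5.03e-14), both in the authors' deposited table. It was 6.20-fold in D8 depleted (2.63, 0.43, 6.725e-08) and 9.71-fold in D10 repopulated (3.28, 0.40, 1.266e-13), again in the authors' deposited table. The values of D6, D10 and D10 repopulated lie close together, and those of D8 and D8 depleted below them.

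Mt2 rose more than Mt1 in each diabetic group. It was 23.3-fold higher in D6 than in ND (log2 4.54, implied standard error 0.47, FDR p = 2.352e-18 in the authors' deposited table), at rank 4 of 17876 by FDR p and rank 75 by log2 fold change. The interval at 95% ran from 12.3-fold to 44.2-fold. Mt2 was 10.3-fold higher in D8 (log2 3.36, FDR p = 9.279e-10) and 20.5-fold higher in D10 (4.36, 2.589e-17) in the authors' deposited table. It was 9.57-fold higher in D8 depleted (3.26, 1.126e-08) and 21.5-fold higher in D10 repopulated (4.43, 6.402e-18) in the authors' deposited table. The log2 change of Mt2 exceeded that of Mt1 by 1.12 in D6, 0.90 in D8, 1.04 in D10, 0.63 in D8 depleted and 1.15 in D10 repopulated, and this gap between the 2 genes was not tested, since their errors within a sample are not known to be independent.

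Mt3 rose far less. It was 1.83-fold higher in D6 (log2 0.87, implied standard error 0.16, FDR p = 5.601e-06), 1.52-fold higher in D10 (0.60, 0.16, 0.005558) and 1.73-fold higher in D10 repopulated (0.79, 0.16, 5.945e-05) in the authors' deposited table. Its largest value was in D8 depleted, at 2.46-fold (log2 1.30, 0.17, FDR p = 2.606e-11 in the authors' deposited table). In D8 without depletion Mt3 did not pass, with log2 0.52 (0.16) and FDR p = 0.0507 in the authors' deposited table. The deposited means of Mt3 were 43.9 in D8 depleted, 30.4 in D6, 30.0 in D10 repopulated, 26.4 in D10, 25.2 in D8 and 18.3 in ND repopulated, with ND placed at 16.6 to 17.8. The order of the diabetic groups is thus another one than for Mt1 and Mt2, where D8 depleted stood below D6. The fourth gene of the family, Mt4, known from stratified epithelium, was at 0 or close to 0 in all deposited means and has no FDR p in any of the 8 comparisons.

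The precision behind these values differs by gene. If every sample of a comparison with ND had the same spread, the errors would correspond to a standard deviation between samples of 0.66 log2 for Mt1, 0.78 for Mt2, 0.27 for Mt3, 0.13 for Mtf1, 0.30 for Slc30a1 and 0.22 for Slc39a14 in D6 against ND. Each gene gave nearly the same value in the other 5 comparisons with ND. Within the pair D10 repopulated and D10 the value was smaller for Mt1 (0.40) and Mt2 (0.42) and larger for Mtf1 (0.17), and in the pair D8 depleted and D8 it was 0.69 for Mt1, 0.81 for Mt2 and 0.18 for Mtf1. The errors in the comparisons with ND thus followed the sample numbers, with nearly 1 implied value for each gene whichever group was compared. For Mtf1 the implied standard error in D6 against ND (0.0781) was nearly that of other genes, such as Slc30a5 (0.0778). The 0.13 of Mtf1 is therefore not to be read as its own measured spread.

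Mtf1, the zinc sensor that drives metallothionein transcription, was lower in 4 of the 5 diabetic groups, by small amounts. The deposited or placed means were 4.91 in ND, 4.39 in ND repopulated, 4.38 in D10, 4.19 in D8, 4.07 to 4.18 in D8 depleted, 3.97 in D6 and 3.91 to 3.93 in D10 repopulated. The fold against ND was 0.809 in D6 (log2 -0.31, implied standard error 0.08, FDR p = 0.001284) and 0.828 in D8 (-0.27, 0.08, 0.0217) in the authors' deposited table. In the authors' deposited table it was 0.830 in D8 depleted (-0.27, 0.08, FDR p = 0.007357) and 0.796 in D10 repopulated (-0.33, 0.08, 0.0007108). D10 did not pass, with log2 -0.18 and FDR p = 0.186 in the authors' deposited table. Mtf1 in ND repopulated against ND had log2 -0.16, with p = 0.0407 before adjustment and an FDR p of 0.999972 in the authors' deposited table. In the 4 groups where it was called, Mtf1 moved opposite to Mt1 and Mt2. Its implied standard error in D6 against ND, 0.0781, nearly equalled those of Slc30a5 (0.0778), Slc39a9 (0.0780) and Gclc (0.0779). The error behind the 4 calls may therefore not be a spread particular to Mtf1. In the pairs without ND it was larger, 0.120 in D8 depleted against D8 and 0.109 in D10 repopulated against D10.

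Slc30a1, the exporter that MTF-1 is known to raise with the metallothioneins, was called in 1 of the 8 comparisons, and there it was lower. Its deposited or placed means were 4.95 in D10 repopulated, 4.94 in D6, 4.76 in ND repopulated, 4.60 in ND, 4.43 in D8, 4.23 to 4.27 in D10 and 3.12 to 3.17 in D8 depleted. D8 depleted was 0.679 of ND (log2 -0.56, implied standard error 0.19, FDR p = 0.0179 in the authors' deposited table). In the other diabetic groups the log2 value against ND was 0.15 in D6 (FDR p = 0.581), -0.08 in D8 (0.938), -0.12 in D10 (0.848) and 0.10 in D10 repopulated (0.798) in the authors' deposited table. The interval at 95% for D6 ran from -0.20 to 0.51, which leaves out a rise of the size seen for Mt3 and the much larger ones of Mt1 and Mt2.

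Slc39a14, the importer of the acute-phase response in liver, was called in none of the 8 comparisons. The deposited or placed means were 5.33 in D10, 5.19 in D10 repopulated, 4.29 in D8, 4.18 in D6, 4.11 in ND, 3.77 in ND repopulated and 3.56 to 3.61 in D8 depleted. The values nearest to a call were those of both 10 week groups against ND. They were log2 0.36 in D10 (implied standard error 0.13, p = 0.00764 and FDR p = 0.0903) and 0.33 in D10 repopulated (0.13, p = 0.0153 and FDR p = 0.0947) in the authors' deposited table. D6 had log2 0.07, D8 0.03 and D8 depleted -0.21 in the authors' deposited table, with FDR p of 0.758, 0.970 and 0.288.

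**Figure D2:**
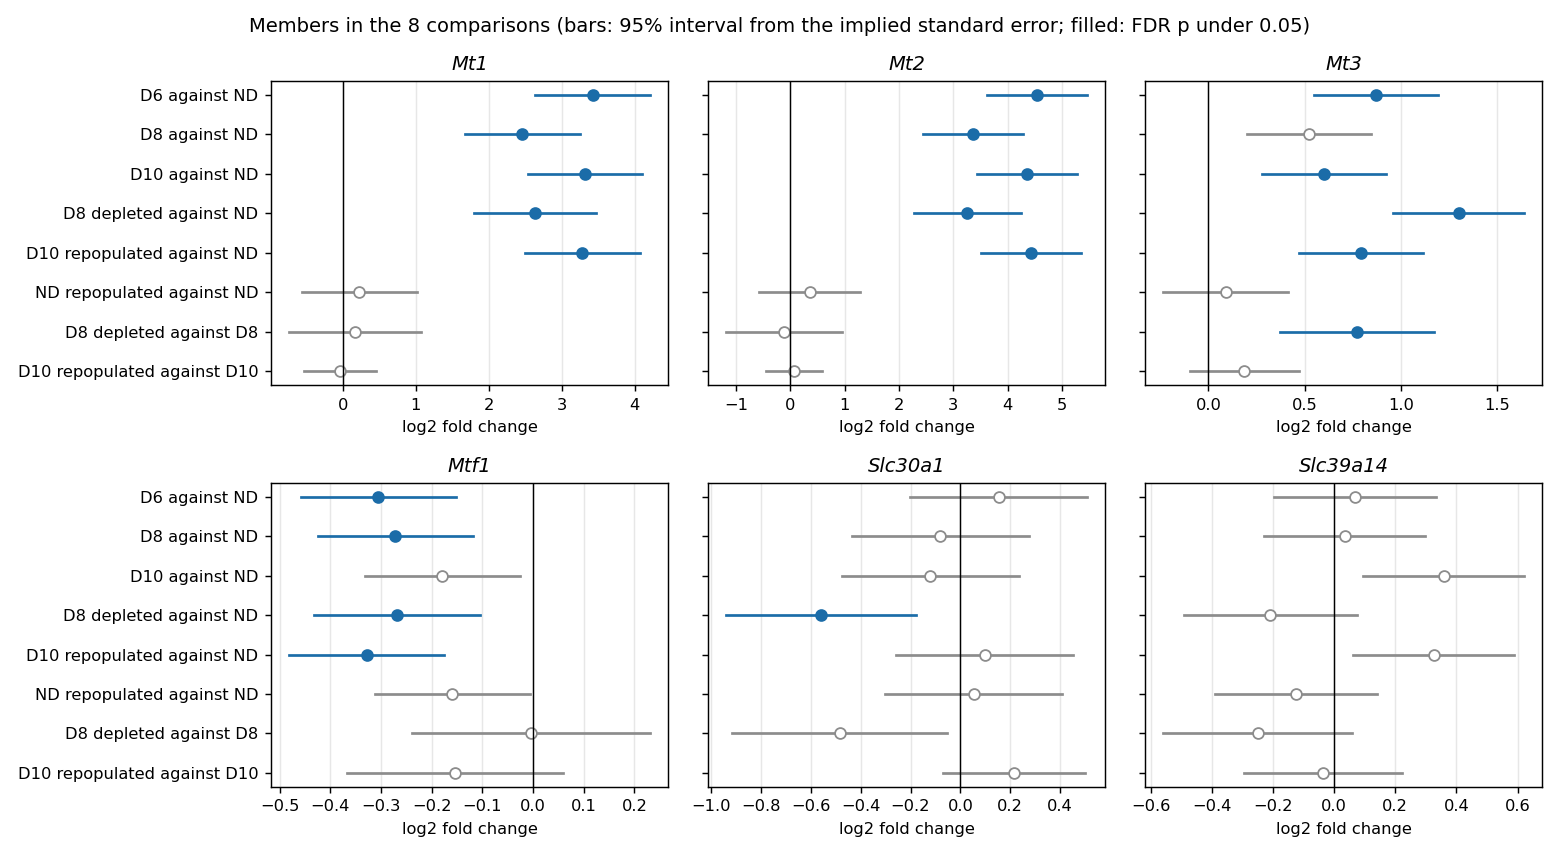
Log2 fold change (horizontal axis) of the 6 genes in the 8 comparisons (vertical axis). Bars are intervals at 95% from the implied standard error and filled points have an FDR p under 0.05. Mt1 and Mt2 lie between 2.46 and 4.54 in the 5 comparisons of diabetic groups with ND and near 0 in the other 3, and each panel has its own horizontal scale.

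Repopulation in non-diabetic retina asks whether depletion followed by 2 weeks of recovery moves these genes without diabetes. No group was non-diabetic and depleted without recovery, so the effect of depletion itself outside diabetes cannot be read. None of the 6 was called in ND repopulated against ND, where 0.156% of 15402 tested genes were called, and 1 of the 6 (Mtf1) had a p under 0.05 before adjustment in the authors' deposited table. Mt1 had log2 0.22 (interval -0.56 to 1.01), Mt2 0.36 (-0.57 to 1.28) and Mt3 0.09 (-0.23 to 0.41) in the authors' deposited table. The intervals of Mt1 and Mt2 still hold a 2-fold rise, and their upper ends lie below the value of each of the 5 diabetic groups against ND.

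Depletion of microglia within diabetic retina was compared at 8 weeks (D8 depleted against D8), and 1 of the 6 genes was called. There 10.8% of 16982 tested genes were called, 5.85% higher and 4.90% lower. Mt3 was 1.71-fold higher in D8 depleted (log2 0.77, implied standard error 0.20, FDR p = 0.00512 in the authors' deposited table). Mt1 was not called, with log2 0.17 (interval -0.74 to 1.07, FDR p = 0.862), nor was Mt2, with -0.11 (-1.18 to 0.96, 0.926), in the authors' deposited table. Slc30a1 had log2 -0.48 (p = 0.0275, FDR p = 0.138), Slc39a14 -0.25 (FDR p = 0.316) and Mtf1 -0.00434 (0.988) in the authors' deposited table. This comparison crosses the divide in library numbers and the PBS label. The difference of D8 depleted and D6, which crosses neither, was log2 0.43 for Mt3 and did not pass (adjusted p of 0.165).

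All of the 10 microglia markers read as a check (such as Cx3cr1, P2ry12 and Tmem119) were lower in D8 depleted than in D8, with a median log2 of -3.56 in the authors' deposited table. There, 3 of 7 markers of Muller glia, the radial support cells of the retina, were lower: Aqp4 by log2 -0.42, Slc1a3 by -0.48 and Kcnj10 by -0.66. Of 4 astrocyte markers 1 was higher there (Aldh1l1, log2 0.59), and Pax2 had -0.37, in the authors' deposited table, while 1 of 4 rod markers (Gnat1, log2 -0.44) was lower. Of 7 pigment epithelium markers 3 were higher in the same comparison, among them Ttr (log2 1.72), and of 4 neutrophil markers 1 (S100a9, 2.04), in the authors' deposited table. Of 7 lens markers with an FDR p 4 were lower (list median -2.36), and of 5 red blood cell genes 4 were higher (2.13). The marker genes named one by one were chosen after their values were seen, and their part in the Mt3 result was not tested. In whole retina, fewer cells of a type and less RNA per cell cannot be told apart.

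Repopulated and never depleted diabetic retina were compared at 10 weeks. None of the 6 genes was called, where 0.446% of 16826 tested genes were called, and none had a p under 0.05 before adjustment in the authors' deposited table. Mt1 had log2 -0.04 (interval -0.53 to 0.45), Mt2 0.06 (-0.45 to 0.58), Mt3 0.19 (-0.10 to 0.47), Mtf1 -0.15 (-0.37 to 0.06), Slc30a1 0.21 (-0.07 to 0.50) and Slc39a14 -0.04 (-0.29 to 0.22) in the authors' deposited table. Of the 10 microglia markers 4 were lower there, with a list median of log2 -0.98 in the authors' deposited table. Of 5 red blood cell genes 4 were higher, with a list median of log2 3.81 in the authors' deposited table. D10 repopulated against D10 also crosses the divide in library numbers and the PBS label.

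Where no table compares 2 groups directly, their difference was computed from the tables against ND. Its p comes from the normal distribution and the implied errors, adjusted over all genes by the Benjamini-Hochberg method, because an exact test needs values per sample, which were not analysed here. Between repopulated diabetic and repopulated non-diabetic retina, both of which had been depleted and share a run of library numbers, 4 of the 6 genes differed, against 12.2% of 15402 genes. Mt1 was 8.31-fold higher in the diabetic group (log2 3.06 ± 0.36, SE, adjusted p of 2.78e-15) and Mt2 16.8-fold (4.07 ± 0.41, 2.39e-20). Mt3 was 1.63-fold higher (0.70 ± 0.17, adjusted p of 0.00103). Slc39a14, which was called in no deposited comparison, was 1.37-fold higher (0.45 ± 0.14, adjusted p of 0.0154). With variances only added, which overstates the error, Mt3 and Slc39a14 were not called (adjusted p of 0.0660 and 0.227). Mtf1 (-0.17, adjusted p of 0.373) and Slc30a1 (0.04, 0.927) did not pass.

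Over the 3 times of diabetes none of the 6 genes passed in any pair. From 6 to 8 weeks the difference of Mt1 was log2 -0.96 ± 0.36 (SE, adjusted p of 0.0764) and that of Mt2 -1.18 ± 0.41 (adjusted p of 0.0534), where 7.20% of genes passed. From 8 to 10 weeks it was 0.86 ± 0.36 for Mt1 (adjusted p of 0.553) and 1.00 ± 0.41 for Mt2 (0.534), with 0.502% of genes passing. From 6 to 10 weeks it was -0.11 for Mt1 (interval -0.81 to 0.59) and -0.18 for Mt2 (-0.99 to 0.62), with 6.07% of genes passing. At an unadjusted p under 0.05 the 3 metallothioneins were lower in D8 than in D6, and Mt1, Mt2 and Slc39a14 were higher in D10 than in D8. The dip of Mt1 and Mt2 at 8 weeks is therefore present in the means and not called, and D8 stands apart from D6 also by PBS and library numbers.

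D8 depleted was set against D6, the diabetic group of the earliest time, where 1 of the 6 genes passed against 5.09% of genes. Slc30a1 was lower by log2 -0.71 ± 0.19 (SE, adjusted p of 0.00952), a 1.64-fold difference. Mt2 had -1.28 ± 0.45 (adjusted p of 0.0648), Mt1 -0.79 ± 0.39 (0.252) and Mt3 0.43 ± 0.18 (0.165). From D8 depleted to D10 repopulated 3 of the 6 passed, against 10.7% of genes. Slc30a1 was higher by log2 0.66 ± 0.19 (adjusted p of 0.0126), Slc39a14 higher by 0.53 ± 0.15 (0.00828) and Mt3 lower by -0.51 ± 0.18 (0.0483). Both transporters thus had their lowest mean in D8 depleted, where Mt3 had its highest. With variances only added, Slc30a1 against D6 had an adjusted p of 0.386, and these 3 genes had 0.214, 0.159 and 0.306.

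Between D10 repopulated and D6 none of the 6 passed and none had an unadjusted p under 0.05, against 1.89% of genes called. The interval of that difference was -0.84 to 0.55 for Mt1, -0.92 to 0.69 for Mt2 and -0.42 to 0.26 for Mt3. A difference in the effect of repopulation between diabetic and non-diabetic retina was called for none of the 6, nor was any at an unadjusted p under 0.05, with 0.188% of genes called. For Mt1 that difference of effects was -0.27 (interval -1.19 to 0.66). The effect of depletion at 8 weeks minus that of repopulation at 10 weeks was called for none, against 0.654% of genes. In that contrast Slc30a1 had -0.70 ± 0.26 (SE, adjusted p of 0.219) and Mt3 0.59 ± 0.25 (0.315), both with an unadjusted p under 0.05.

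**Figure D3:**
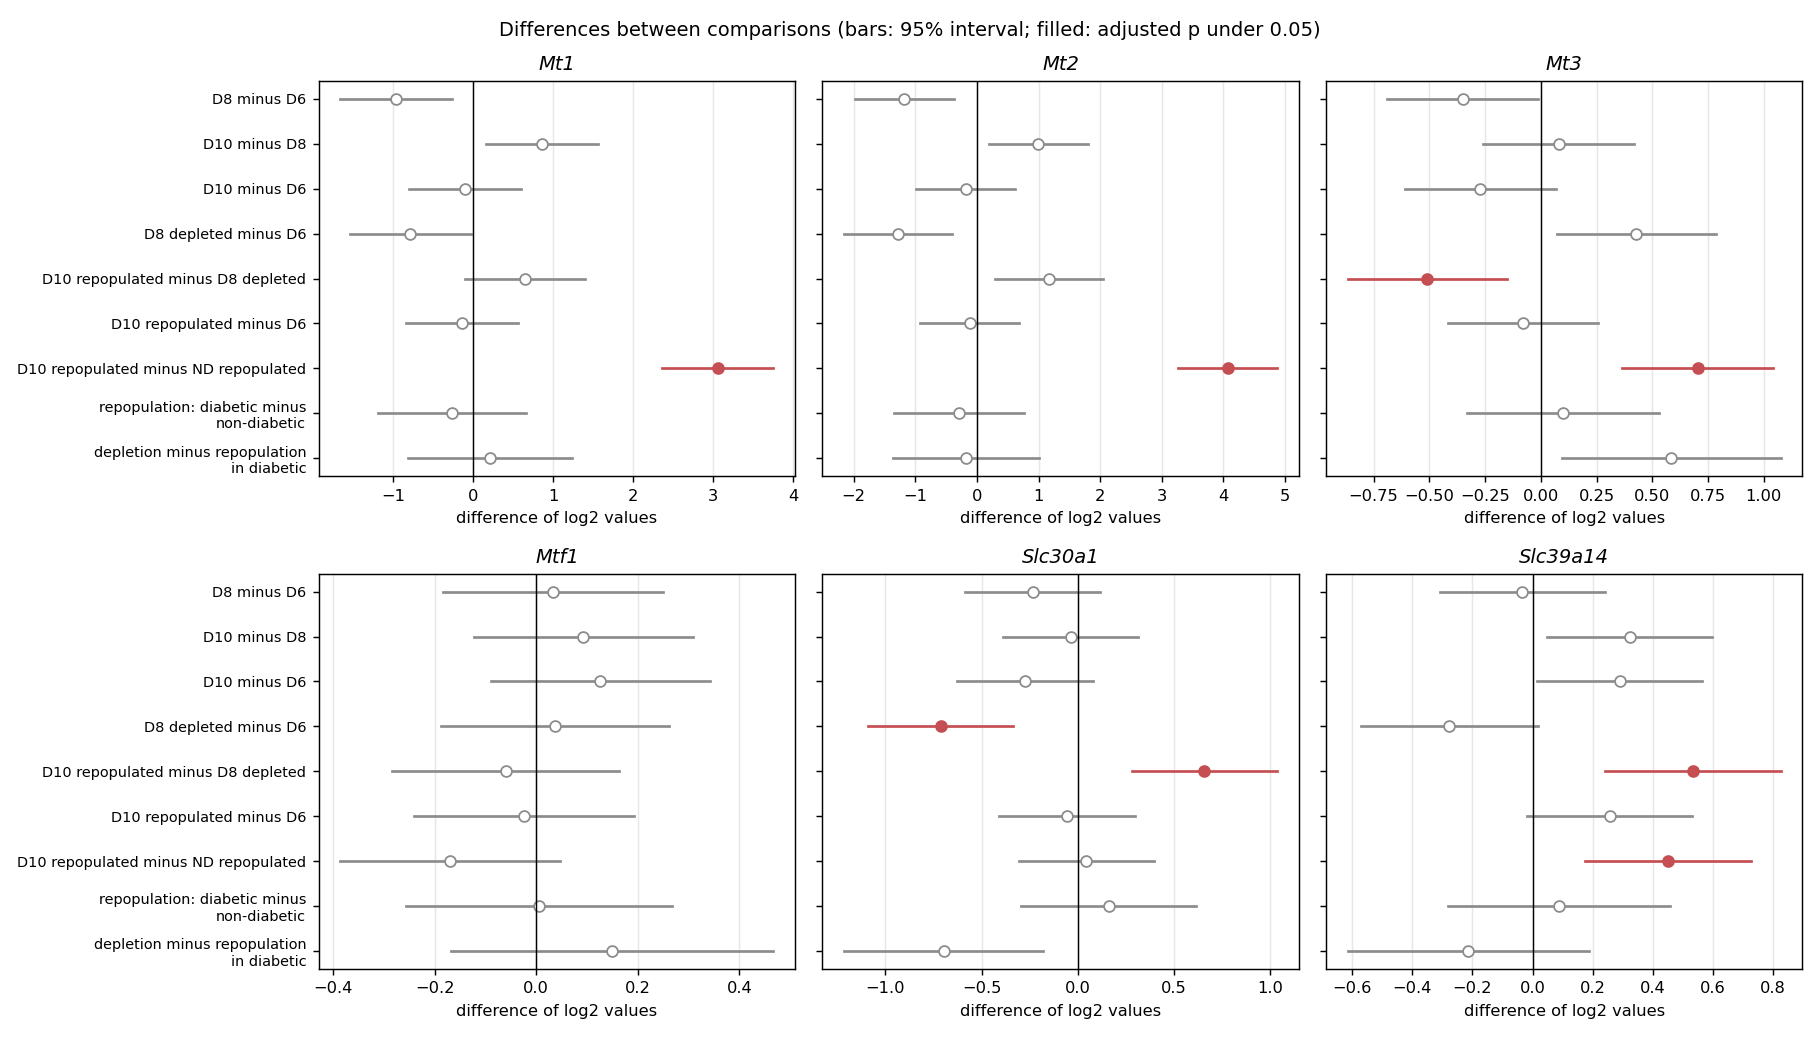
Differences of log2 values (horizontal axis) of the 6 genes in 9 contrasts computed from the deposited tables (vertical axis). Bars are intervals at 95% and filled points have an adjusted p under 0.05. Filled points are found for Mt1 and Mt2 between repopulated diabetic and repopulated non-diabetic retina, for Slc30a1 in both contrasts that start or end at D8 depleted, and for Mt3 and Slc39a14 in 2 contrasts each.

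The whole families of zinc transporters were read beside Slc30a1 and Slc39a14. Of 10 exporters of the Slc30 family, 1 was higher and none lower at 6 weeks, namely Slc30a4, an exporter into vesicles, with log2 0.33 in the authors' deposited table. At 10 weeks Slc30a10, a transporter known for manganese export, was lower by log2 -0.68 in the authors' deposited table, and it was the only exporter called there. In D8 depleted against ND Slc30a1 was the only one, and no exporter was called in the other 5 comparisons. Slc30a3, the zinc transporter of synaptic vesicles, was called in none. The median log2 of the exporters was 0.10 at 6 weeks and -0.15 in D8 depleted, against medians over all tested genes of 0.04 and 0.02.

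Importers of the Slc39 family were counted in the same way. Of 14 importers 4 were higher and 1 lower at 6 weeks, none was called at 8 weeks and 3 were higher at 10 weeks. In D8 depleted against ND 3 were higher and 2 lower, and in D10 repopulated against ND 2 were higher and 1 lower. The shares of all genes called in these 5 comparisons were 23.4%, 2.91%, 7.00%, 28.5% and 11.7%, and whether the 2 families differ was not tested. Slc39a8 (ZIP8), a plasma membrane importer known to be induced through NF-kB, was higher in 4 of the 5 comparisons with ND: log2 1.30 in D6, 1.36 in D10, 1.89 in D8 depleted and 1.34 in D10 repopulated in the authors' deposited table. Slc39a4 (ZIP4), the zinc uptake transporter of the gut, was higher by 2.14 in D6, 1.78 in D10 and 1.73 in D8 depleted in the authors' deposited table. Slc39a4 was also higher in D8 depleted than in D8, by 1.19 in the authors' deposited table. Their deposited means are small numbers in the unstated unit: none of Slc39a4 was above 1.29 and none of Slc39a8 above 0.988. Slc39a1 (ZIP1), a broadly expressed importer, was higher by 0.51 in D6, 0.61 in D10 and 0.46 in D10 repopulated in the authors' deposited table. Slc39a10 (ZIP10), an importer that MTF-1 is known to repress, was lower in D8 depleted than in D8 (log2 -0.43) and than in ND (-0.33) in the authors' deposited table. The median of the 14 stayed near that of all genes, at log2 0.01 in D6, 0.01 in D8 and -0.02 in D10.

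**Figure D4:**
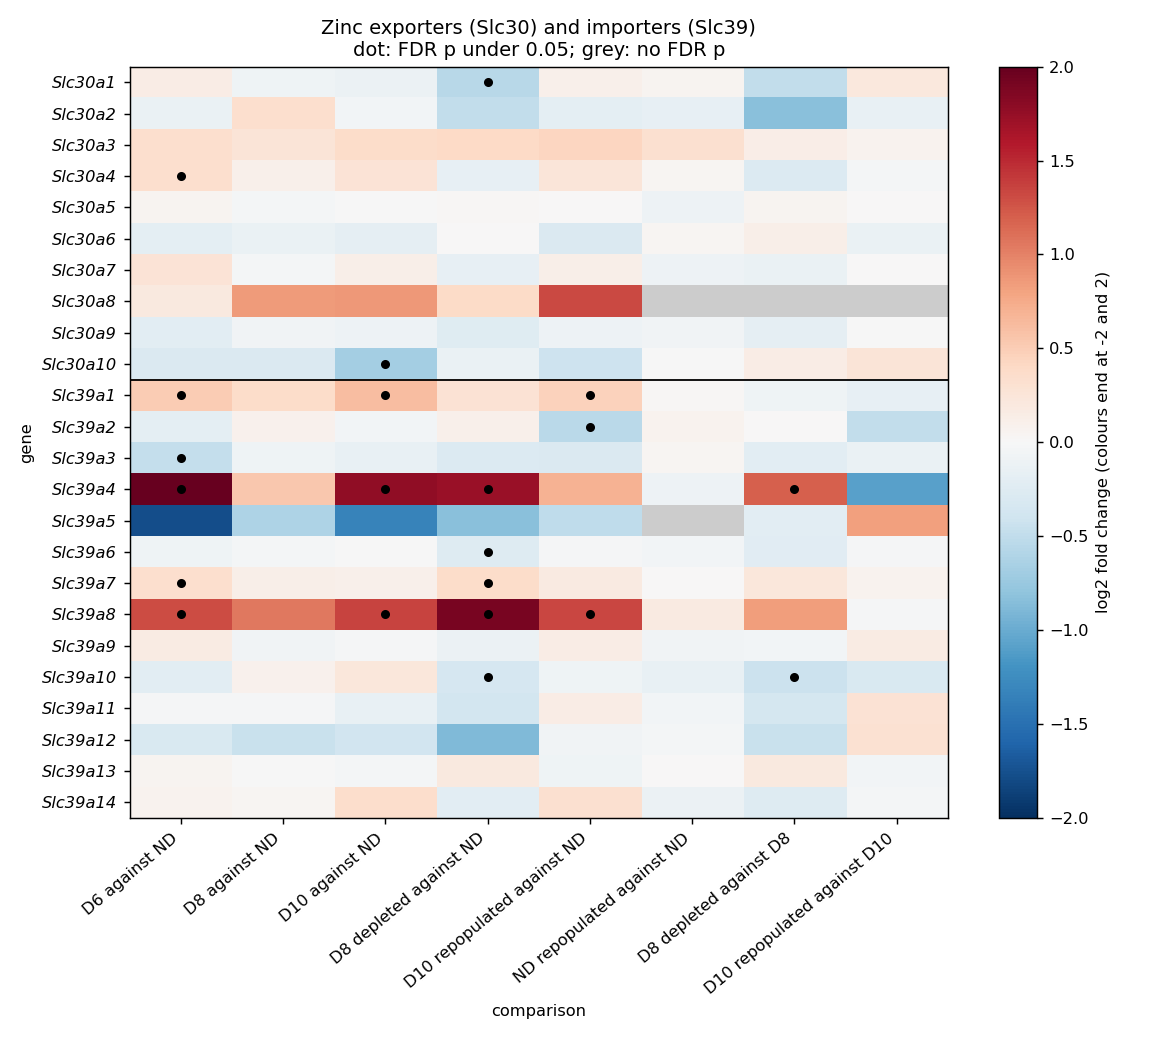
Log2 fold change (colour) of 10 zinc exporters and 14 importers (rows) in the 8 comparisons (columns). Dots mark an FDR p under 0.05 and grey cells have no FDR p. Slc39a4 and Slc39a8 have the strongest red cells with dots, while Slc30a1 and Slc39a14 are paler, and the only dot among them is that of Slc30a1 in D8 depleted against ND.

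Other genes known to depend on MTF-1 were read with Mt1, Mt2 and Slc30a1 left out. Of 7 such genes 2 were higher at 6 weeks, 1 at 8 weeks and 1 at 10 weeks. In D8 depleted against ND 2 were higher and 1 lower, and in D10 repopulated against ND 1 was higher. The lower gene was Slc39a10 (log2 -0.33 in the authors' deposited table), which MTF-1 is known to repress. The list thus holds genes that MTF-1 acts on in either direction, and its counts and median do not measure MTF-1 activity. Of all genes 23.4%, 2.91%, 7.00%, 28.5% and 11.7% were called in these comparisons in either direction, and 14.1%, 2.33%, 5.59%, 15.5% and 7.49% higher. In either direction, 2 of 7 at 6 weeks is near the share of all genes. The list was not tested against these shares. Pgf, the placental growth factor gene of the VEGF family, was the 1 that was higher in all 5 diabetic groups: log2 2.56 in D6, 2.26 in D8, 2.97 in D10, 2.20 in D8 depleted and 3.02 in D10 repopulated in the authors' deposited table. Gclc, an enzyme gene of glutathione synthesis, was higher by 0.27 in D6, and the selenoprotein gene Selenoh by 0.38 in D8 depleted, in the authors' deposited table. The median log2 of the 7 was 0.13 in D6, 0.09 in D8 and 0.15 in D10.

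Copper is the other metal that metallothioneins bind. Of 11 copper genes 1 was lower at 6 weeks, none was called at 8 weeks and 1 was higher at 10 weeks. In D8 depleted against ND 3 were higher and 2 lower. Of all genes 23.4%, 2.91%, 7.00% and 28.5% were called in these 4 comparisons. In D8 depleted the copper importer gene Slc31a1 had log2 -0.45, its paralogue Slc31a2 0.49, the chaperone gene Atox1 0.31, the superoxide dismutase gene Sod1 (named after its value was seen) 0.35 and the copper pump gene Atp7a -1.27 in the authors' deposited table. Atox1 was also higher in D8 depleted than in D8, by 0.41 in the authors' deposited table, as Mt3 was.

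Of 11 iron genes 3 were higher and 1 lower at 6 weeks, and 2 were higher at 8 and at 10 weeks, where 23.4%, 2.91% and 7.00% of all genes were called. Steap4, a metalloreductase gene known to be induced by inflammation, was higher by log2 5.10 in D6, 4.82 in D8 and 6.63 in D10 in the authors' deposited table. Cp, the ferroxidase ceruloplasmin, was higher by 0.84, 1.05 and 1.91 in the authors' deposited table. Unlike Mt1 and Mt2, for which no call was made, Steap4 (log2 -0.95) and Cp (-0.85) were lower in D10 repopulated than in D10 in the authors' deposited table; that the genes differ in this was not tested.

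Lists of pathways known to act on Mt1 and Mt2 in other tissues were counted in the same way. Of 11 genes induced through the glucocorticoid receptor 7 were higher and 1 lower in D6, 3 and 1 in D8, 3 and 0 in D10, 5 and 1 in D8 depleted, and 6 and 1 in D10 repopulated, all against ND. In the same order 23.4%, 2.91%, 7.00%, 28.5% and 11.7% of all genes were called, in either direction, which applies to each list here. Fkbp5, a cochaperone of that receptor, was higher by log2 1.28, 1.00, 1.62, 1.44 and 1.69 in these 5 groups in the authors' deposited table. Nfkbia and Cdkn1a were also higher in all 5. Dusp1, on the same list, went the other way. It was lower by log2 -0.52 in D6, -0.57 in D8, -0.74 in D8 depleted and -0.62 in D10 repopulated in the authors' deposited table. Dusp1 was also lower without diabetes, by -0.76 in ND repopulated against ND in the authors' deposited table. Of 14 genes of IL-6 family signalling 10, 8, 11, 7 and 10 were higher in the same order and none lower. Lcn2, the lipocalin that binds iron carriers of bacteria, was higher by 6.30, 5.51, 7.08, 6.82 and 6.84 in the authors' deposited table. Socs3, the feedback inhibitor of STAT3 signalling, named after its values were seen, was higher by 2.36, 2.01, 2.86, 1.64 and 2.95 in the authors' deposited table. Among 7 oxidative stress genes 4, 1, 3, 2 and 2 were higher and none lower, among them the cystine transporter gene Slc7a11 in all 5 groups and the heme oxygenase gene Hmox1 in D6, D10 and D10 repopulated. Hmox1 was also high without diabetes, with log2 2.16 in ND repopulated against ND (p = 0.000125, FDR p = 0.0742 in the authors' deposited table, not called). Its deposited mean was 10.6 in D6, 6.48 in ND repopulated, 5.94 in D10 and 5.05 in D10 repopulated. These groups all share ND, and the relation of these genes to Mt1 or Mt2 between samples was not tested.

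Genes around the cluster were read in the same comparisons. Within 200 kb of the start of Mt1 the tables hold 9 genes beside the 3 metallothioneins, of which 6 were tested against ND in all diabetic groups. At 6 weeks Ogfod1 was lower (log2 -0.37) and Nup93 higher (0.31) in the authors' deposited table, and in D8 depleted against ND Ogfod1 was lower (-0.36) and Bbs2 higher (0.32). These are 2 of 6 genes in each, where 23.4% and 28.5% of all genes were called. None of the 6 was called in the other 6 comparisons, where 5 of them were tested in ND repopulated. These neighbours were picked by position, and are named after their values were seen. Mt3 is 18.52 kb from Mt2, and Mt2 is 5.51 kb from Mt1.

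**Figure D5:**
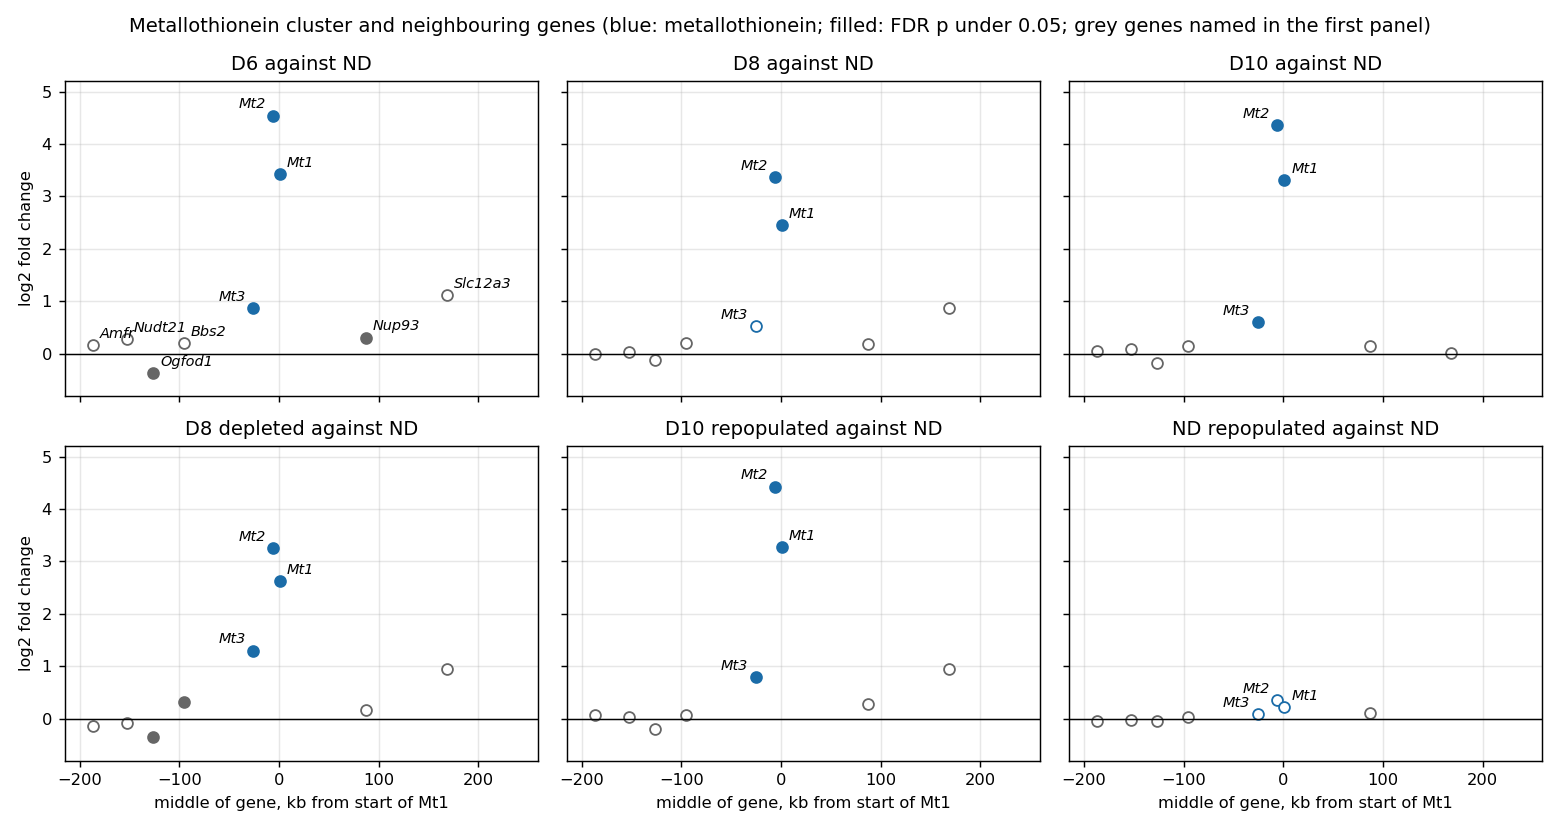
Log2 fold change (vertical axis) of the metallothioneins (blue) and the other tested genes within 200 kb (grey) against the distance of each gene's middle from the start of Mt1 in kb (horizontal axis), in the 6 comparisons with ND. Filled points have an FDR p under 0.05. Mt1 and Mt2 stand above log2 2 in the 5 diabetic panels, Mt3 lies between 0.52 and 1.30, and the grey genes stay between -0.37 and 1.11.

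Genes with the most similar values were looked up among 14603 genes tested in all 8 tables, by the root mean square (RMS) difference of log2 fold change over the 8 comparisons. The comparisons share samples, so likeness is a description. Closest to Mt1 were Rtp4, an interferon-induced gene (RMS 0.254), the formyl peptide receptor gene Fpr2 (0.326) and the MHC class I gene H2-Q4 (0.355). Closest to Mt2 were the interferon-inducible GTPase genes Gbp9 (0.371) and Gbp6 (0.393) and the NF-kB regulator gene Bcl3 (0.406). Mt1 and Mt2 differed from each other by an RMS of 0.788, so that Mt2 was rank 76 for Mt1 and Mt1 rank 28 for Mt2. Closest to Mt3 were Rab34 (0.0834), the phosphorylase kinase gene Phka2 (0.107) and the transferrin receptor gene Tfr2 (0.114), while Mt1 was at rank 14339 of 14603. Mtf1 was closest to the lactate dehydrogenase gene Ldha (0.0257), Gzf1 (0.0340) and Chd7 (0.0437). Under an RMS of 0.1 there were 0 genes for Mt1 and Mt2, 1 for Mt3 and 194 for Mtf1, whose own changes are small.

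The tissue label was checked against rod photoreceptor genes. Gnat1, the transducin gene of rods, named after its values were seen, had a deposited mean of 3630 in ND. In the authors' deposited table it was lower against ND in D6 (log2 -0.48) and in D8 depleted (-0.63). Genes of the lens, which lies next to the retina, were lower in D8 (6 of 8 markers, median log2 -5.68) and in D8 depleted (8 of 8, -8.98) against ND in the authors' deposited table, while 1 of 8 was higher in D6 and none was called in D10 or D10 repopulated. Red blood cell genes were lower in D8 (4 of 5) and D10 (5 of 5) against ND, and 4 of 5 were higher both in D8 depleted against D8 and in D10 repopulated against D10. Markers of Muller glia were lower in D6 (3 of 7), D10 (3 of 7) and D8 depleted (4 of 7) against ND. Of all genes 9.31%, 0.583%, 1.41%, 13.0% and 4.19% were lower in D6, D8, D10, D8 depleted and D10 repopulated against ND. In the same order 14.1%, 2.33%, 5.59%, 15.5% and 7.49% were higher. In D8 depleted against D8 5.85% were higher, and in D10 repopulated against D10 0.446% were called in either direction. Of 4 genes on the astrocyte list, 2 (Gfap and Aldh1l1) were higher in D6, D8 depleted and D10 repopulated. Only 1 of them, the filament gene Gfap, was higher in D8 and D10. In D6, D8, D10, D8 depleted and D10 repopulated Gfap had log2 1.70, 1.10, 1.96, 1.75 and 2.06 in the authors' deposited table. Pax2 and S100b were called in none of the 5 diabetic groups. S100b had log2 0.06, -0.25, -0.32, 0.16 and -0.11 in the same order in the authors' deposited table. Of 4 neutrophil markers 2 (S100a8 and S100a9) were higher in 4 of these 5 groups and none in D8, while Ly6g and Retnlg were called in none and had log2 -0.46 and -0.22 in D6 in the authors' deposited table. Of these, lens genes move with the dip of Mt1 and Mt2 at 8 weeks, and their part in it was not tested. Of the groups that share a run of library numbers with ND and have no PBS in their labels, D6 and D10 repopulated had the larger rises of Mt1 (10.7-fold and 9.71-fold) and D8 depleted the smaller one (6.20-fold).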

How the data were processed

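Poly(A) RNA of whole mouse retina was sequenced by the authors as stranded paired reads of 100 bp, per the labels' protocols. GRCm39 and bcl2fastq are named in the submitters' processing notes. For the aligner, the counter and the test, a name is not given in the sources used here. Each of the 8 tables the authors deposited holds 25655 genes with, per the file headers, the larger of the 2 group means (a signal in a unit not stated), the log2 fold change, its p-value and its FDR p-value. The deposited FDR p-values equal a Benjamini-Hochberg adjustment of the p-values within 0.000489. Values per sample, and so depth and the spread between samples, were not analysed here. The table of D10 against D10 repopulated was turned round in sign.

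Implied standard errors were taken from the log2 fold change and its p, and intervals cover 95%. The 9 further differences add the variances of both comparisons. For the 7 that share ND, 2 times the variance of the ND mean was removed, which was estimated from tables that close a triangle. These triangles closed within 0.05 log2 for 99.9% of 16982 genes and 99.6% of 16826 genes. The procedure was run on simulated data in which all groups of a gene shared 1 variance. In the deposited comparisons the implied spread differed, for Mt1 0.40 log2 in D10 repopulated against D10 and 0.66 in D6 against ND. The variance of ND came out at 0 for Mtf1. The simulation therefore cannot show how well the removal works for such genes. Scripts used Python 3.11.15, numpy 2.4.6, pandas 2.3.3, scipy 1.17.1 and matplotlib 3.10.9.

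The 6 genes and all lists were chosen with earlier results of these data known. Beside the 6, the text names up to 4 genes per list, those called in most tables, with ties broken by the smaller median p, and the 3 genes most like each of the 6 called in at least 3 tables. For likeness, genes among the lowest 40% of level and predicted genes were left out. Alternatives were other thresholds, a minimum change, omission of low or predicted genes, centring, and other variances of a difference.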

Additional observations from a re-analysis of the deposited data

Results flagged for a closer look

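Differences between diabetic groups, or between diabetic and non-diabetic repopulated retina, passed the test of the difference itself in 8 cases. Slc30a1 was lower in D8 depleted than in D6 by a log2 difference of -0.71. From D8 depleted to D10 repopulated the log2 difference was -0.51 for Mt3, 0.66 for Slc30a1 and 0.53 for Slc39a14. Between D10 repopulated and ND repopulated it was 3.06 for Mt1, 4.07 for Mt2, 0.70 for Mt3 and 0.45 for Slc39a14. All 8 compare groups that share a run of library numbers and carry no PBS in their labels. Those with D8 depleted also differ in lens genes. The median log2 of the 8 lens markers against ND was -8.98 in D8 depleted, 1.04 in D6 and -1.39 in D10 repopulated. The part of lens content in these differences was not tested.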

How the results depend on the processing

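With a log2 change of at least 1 required as well, the number of the 6 genes called fell from 4 to 2 in D6, from 3 to 2 in D8, from 3 to 2 in D10, from 5 to 3 in D8 depleted and from 4 to 2 in D10 repopulated, all against ND, and from 1 to 0 in D8 depleted against D8; the alternative itself removes small changes. With variances only added, without removal of the shared ND part, the number fell from 1 to 0 for D8 depleted minus D6, from 3 to 0 for D10 repopulated minus D8 depleted and from 4 to 2 (Mt1 and Mt2) for D10 repopulated minus ND repopulated. Mt3 in D8 against ND passed with the lowest 40% of genes left out (FDR p of 0.0450), with predicted genes left out (0.0490) and with centring (0.0448). At a threshold of 0.01 Mtf1 in D8 and Slc30a1 in D8 depleted were lost, and at 0.10 Mt3 in D8 and Slc39a14 in D10 and D10 repopulated were gained, all against ND. A variance of ND set by sample numbers, an alternative chosen after seeing the data, kept 42 of 42 results for single genes on their side of the threshold. No result changed direction under any alternative run. No paired analysis was possible because the tables hold comparisons and no values per sample, and leaving out single samples was not run for the same reason.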
